A study of Homo sapiens with 6 samples.

Results

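DDIT4 and DDIT4-AS1 are the 2 members described here, out of 60252 gene IDs in a count table of RPE-1 cells. DDIT4 (ENSG00000168209), also called REDD1, is a coding gene on chromosome 10. DDIT4-AS1 (ENSG00000269926) is the feature annotated on the opposite strand of the same locus. Both were chosen by name from results already seen in these counts, so their own levels and changes are given as descriptions. Where an edgeR call of a member is counted, it stands beside the share of all features called and supports nothing.

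RPE-1 is an established line of human retinal pigment epithelium that carries telomerase, and every condition used the same line. The condition 4h_ATRi was arrested with 2 mM thymidine for 24 h, released by washing, given the ATR inhibitor AZ20 at 2 µM from 1 h after the wash and collected at 4 h (3 libraries). The condition 6h_ATRi received AZ20 in the same way for 5 h and was collected at 6 h (2 libraries, experiments A and B; experiment C is not analysed here). The conditions 4h_DMSO and 6h_DMSO were arrested and released alike with the solvent DMSO (3 libraries each). Arrested cells were held in thymidine and not released (3 libraries), and cycling cells were asynchronous (3 libraries). The letters A, B and C stand for 3 independent experiments. The study asked which genes ATR controls through transcription.

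The DDIT4 protein restrains the kinase complex mTORC1. It acts through the TSC1 and TSC2 complex, which keeps the GTPase RHEB inactive, so that cap-dependent translation and other growth processes slow under stress. Hypoxia through HIF1, amino acid shortage and unfolded protein stress through ATF4, DNA damage through p53, glucocorticoids and FOXO factors are known to raise DDIT4 transcripts, and both the transcript and the protein are short-lived. DDIT4-AS1 names a non-coding transcript read from the other strand, and ATR is the kinase that answers stalled replication forks.

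The annotated DDIT4-AS1 transcript lies wholly opposite to DDIT4. In GENCODE v29 (GRCh38) the coding DDIT4 transcript has 3 exons and 1748 bases, and exon 3 holds 1342 of them. DDIT4-AS1 has 2 exons and 847 bases, and all 847 fall within exon 3 of DDIT4 on the opposite strand. Of these, 274 lie opposite to coding sequence and 573 opposite to the 3′ UTR. Over all DDIT4 transcripts 41.2% of exonic bases face DDIT4-AS1. The last 30 bases of DDIT4-AS1 (bases 818 to 847 of its transcript) and the DDIT4 bases they face (627 to 656 of the coding transcript, within coding sequence) are shown 5′ to 3′ because each is the reverse complement of the other.
DDIT4-AS1: tccacgcagacgtccagcagcgccccccgc
DDIT4: gcggggggcgctgctggacgtctgcgtgga
A read from this stretch can thus be given to one feature or the other by its strand only.

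**Figure D1:**
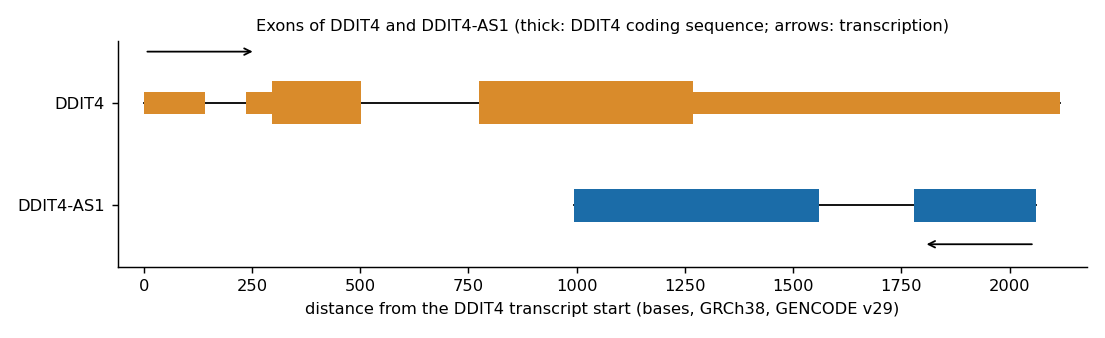
Exons of DDIT4 (upper, with coding sequence thick) and of DDIT4-AS1 (lower) against distance in bases from the DDIT4 transcript start, in GENCODE v29. Arrows give the direction of transcription, and both DDIT4-AS1 exons lie within the span of DDIT4 exon 3.

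The DDIT4 promoter is shown because the gene is known for its many stress inputs, and its inputs were measured as gene lists. The 300 bases come from RefSeq (GRCh38.p14, plus strand, chr10:72273674-72273973) and run from 250 bases before the transcript start to 50 after it. Capitals mark matches to the core of the hypoxia response element and to the CCAAT box.
DDIT4 promoter: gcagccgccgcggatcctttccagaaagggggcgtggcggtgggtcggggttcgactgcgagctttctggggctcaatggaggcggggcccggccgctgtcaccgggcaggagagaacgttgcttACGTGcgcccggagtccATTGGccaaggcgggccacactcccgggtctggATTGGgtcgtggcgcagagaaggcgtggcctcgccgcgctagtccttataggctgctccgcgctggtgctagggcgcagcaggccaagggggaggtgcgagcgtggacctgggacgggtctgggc
Both strands were searched. The hypoxia core ACGTG matched once, at -125 on the plus strand, and 21.4% of 35116 RefSeq promoters of this length held it. CCAAT matched at -108 and at -75, both on the minus strand, where it reads ATTGG in the printed letters, and 34.6% of promoters held it. No match was found to TATAAA (in 11.5% of promoters), GGGCGG (45.0%), CACGTG (7.26%), the forkhead site GTAAACA (3.42%), the glucocorticoid receptor motif AGAACA (14.8%), TGATG, part of the ATF4 element (32.9%), or TGACGTCA (1.85%). A match is a run of letters and was not tested as a site.

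Nearly all counts at the locus were on DDIT4-AS1. Over the 17 libraries DDIT4-AS1 had 10548 counts and DDIT4 had 96, a ratio of 110, so that 0.902% of locus counts were on DDIT4 (95% exact binomial interval 0.731 to 1.10%, counting error only). DDIT4-AS1 was ahead in 17 of 17 libraries, with 172 to 2268 counts per library against 0 to 21 on DDIT4. Per kb of annotated exon, the mean CPM (counts per 1000000 counts of the library, after TMM scaling) of DDIT4-AS1 was 264 times that of DDIT4.

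The share on DDIT4 was 1.30% in 4h_ATRi (95% exact interval 0.743 to 2.10%) and 1.12% in 4h_DMSO (0.563 to 2.00%). It was 0.50% in 6h_ATRi (0.061 to 1.79%) and 0.650% in 6h_DMSO (0.177 to 1.66%). It was 0.927% in arrested cells (0.684 to 1.23%) and 0.669% in cycling cells (0.375 to 1.10%). The intervals of each pair overlap. They rest on counts summed over the libraries of a condition and leave out the spread between libraries, and a difference in the share was not tested.

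The same lean to the antisense feature was common in these counts. Among 2267 coding genes with a paired antisense feature and at least 170 counts together over all libraries, 1608 (70.9%) had more counts on the antisense feature. The median share on the antisense feature was 81.8%, and 98 pairs had a larger share than the 99.1% of the DDIT4 pair. Coding pairs showed it too: BEST1, a chloride channel of the pigment epithelium, had a median of 12266 CPM and FTH1 on its other strand, the abundant ferritin heavy chain, had 129 CPM. PMEL, a melanosome protein, had a median of 317 CPM, and CDK2 on its other strand, a cell cycle kinase, had 8.31 CPM. The library kit keeps strand, per the labels' protocols, and the strand setting of the counting is not given in the sources used here. DDIT4-AS1 transcripts and DDIT4 transcripts counted on the opposite strand therefore cannot be told apart in the counts on DDIT4-AS1.

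**Figure D2:**
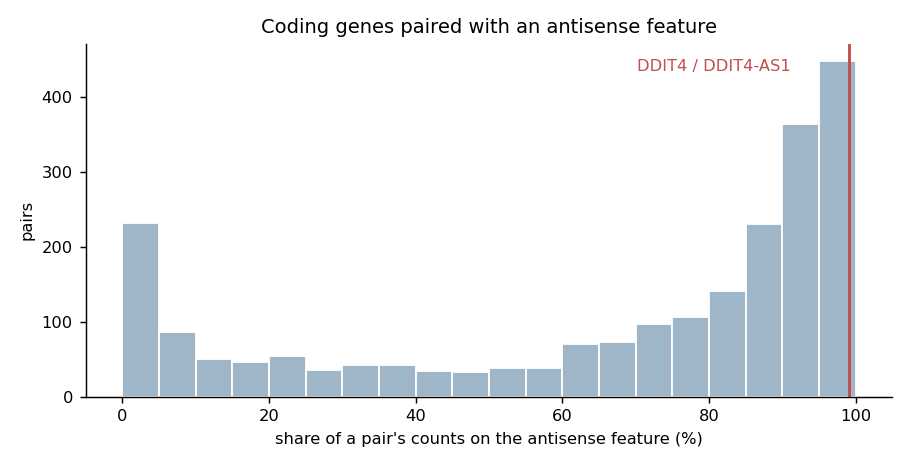
Number of coding genes (y axis) by the share of the pair's counts that lies on the antisense feature (x axis, percent), for the 2267 pairs. The line marks the DDIT4 pair at 99.1%, in the last and tallest bar.

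DDIT4-AS1 was high in arrested cells and low after release. In arrested cells it had 831, 726 and 1152 CPM in experiments A, B and C (mean 903 ± 222, SD, n = 3). At 4 h of release in DMSO it had 185, 126 and 168 CPM (mean 160 ± 30.6, n = 3). At 6 h in DMSO it had 113, 98.9 and 94.2 CPM (mean 102 ± 9.64, n = 3). The 3 conditions did not overlap, and the order held within each experiment. By mean CPM DDIT4-AS1 was feature 122 of the 13510 that passed the filter on low counts in arrested cells, feature 917 at 4 h and feature 1435 at 6 h.

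At 4 h in DMSO, DDIT4-AS1 stood at 22.3, 17.3 and 14.6% of its arrested level in experiments A, B and C. The fitted log2 change was -2.50 ± 0.32 (SE, 95% interval -3.18 to -1.82), and 4 of the 13510 features had a lower value. At 6 h in DMSO it stood at 13.6, 13.6 and 8.18% of the arrested level. The fitted log2 change was -3.14 ± 0.33 (-3.85 to -2.44), with 6 features lower. Between 6 h and 4 h in DMSO the log2 change was -0.65 ± 0.32 (-1.32 to 0.03), with ratios of 0.609, 0.786 and 0.560 in the 3 experiments.

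DDIT4 itself had few counts, in the same order of conditions. Its counts were 19, 8 and 21 in arrested cells, 4, 5 and 2 at 4 h in DMSO and 0, 2 and 2 at 6 h in DMSO (experiments A, B and C). The means were 8.64 ± 4.05 CPM in arrested cells, 1.82 ± 0.76 CPM at 4 h and 0.70 ± 0.61 CPM at 6 h (SD, n = 3 each). A count of 0 in the 6h_DMSO library of experiment A allows up to 1.40 CPM. The lowest arrested library, at 3.98 CPM, was above the highest released DMSO library, at 2.48 CPM.

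The log2 change of DDIT4 was -2.20 ± 0.85 at 4 h in DMSO against arrested cells (95% interval -3.95 to -0.46) and -3.55 ± 0.97 at 6 h (-5.54 to -1.56). DDIT4 passed the filter on low counts only through libraries in which it is high: it reached 10 counts in 3 of 17 libraries, 2 arrested and 1 cycling. Summing both features gave a locus total that followed DDIT4-AS1, with log2 changes of -2.50 at 4 h and -3.15 at 6 h against arrested cells. In bulk samples, fewer cells with the transcript and less transcript per cell cannot be told apart.

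**Figure D3:**
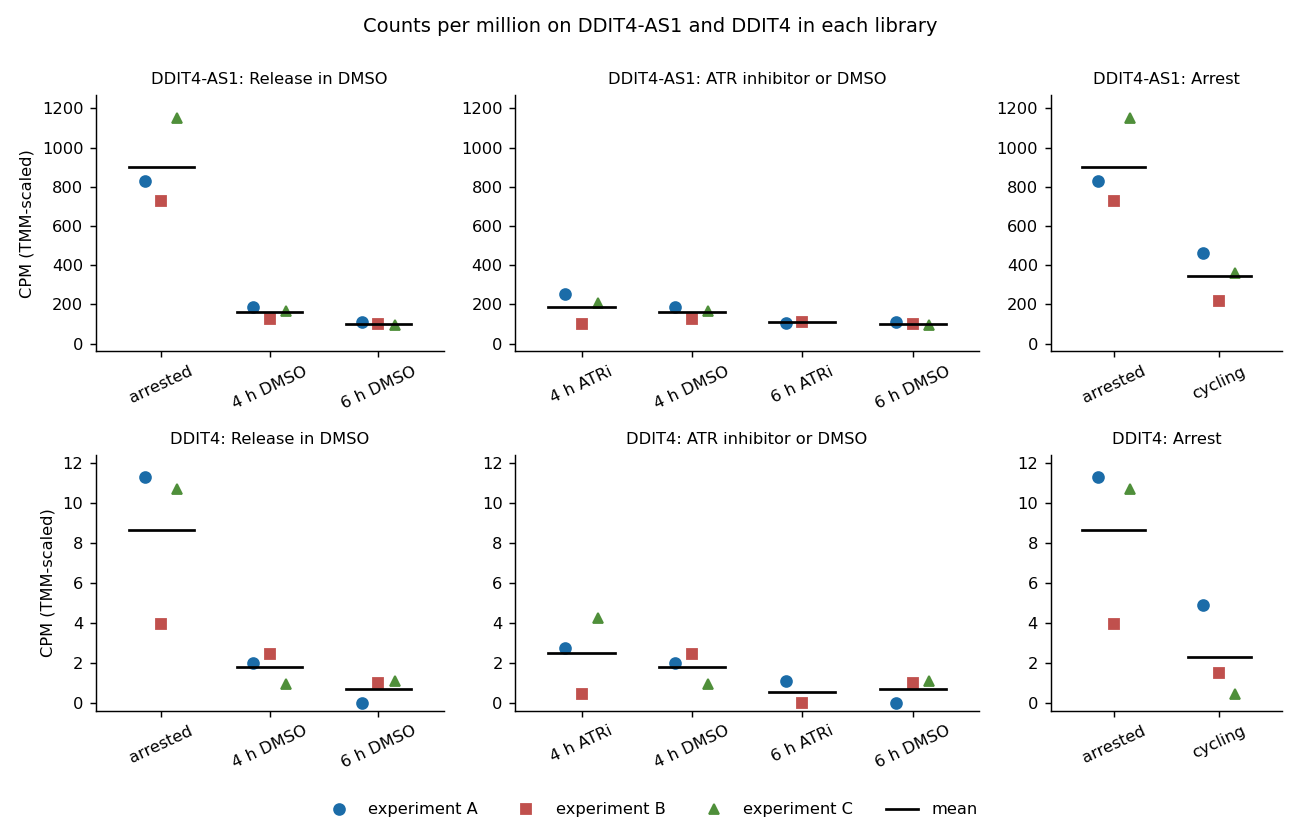
CPM of DDIT4-AS1 (upper row) and DDIT4 (lower row) in each library, with the experiment as symbol and the condition mean as bar; both axes are linear. The 3 arrested libraries of DDIT4-AS1 lie between 726 and 1152 CPM and every released library lies at or below 255 CPM.

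ATR inhibition moved neither member beyond the spread between libraries. DDIT4-AS1 had 255, 102 and 206 CPM in 4h_ATRi (mean 188 ± 78.4, SD, n = 3), against 185, 126 and 168 CPM in 4h_DMSO (mean 160 ± 30.6, n = 3). The ratio of 4h_ATRi to 4h_DMSO was 1.38 in experiment A, 0.808 in B and 1.22 in C, so the experiments differed in direction. The log2 change was 0.23 ± 0.31 (95% interval -0.43 to 0.90). Without experiment B it was 0.40 ± 0.14 (0.12 to 0.67).

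At 6 h DDIT4-AS1 had 106 and 113 CPM in 6h_ATRi (mean 109 ± 4.83, n = 2), against 113, 98.9 and 94.2 CPM in 6h_DMSO (mean 102 ± 9.64, n = 3). The ratio of 6h_ATRi to 6h_DMSO was 0.938 in experiment A and 1.14 in B. The log2 change was 0.10 ± 0.36 (-0.67 to 0.87). The response at 6 h minus that at 4 h was -0.13 ± 0.48 on the log2 scale (-1.15 to 0.88). These intervals leave room for a change of either sign.

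DDIT4 had 6, 1 and 9 counts in 4h_ATRi, against 4, 5 and 2 counts in 4h_DMSO. It had 2 and 0 counts in 6h_ATRi, against 0, 2 and 2 counts in 6h_DMSO. The zero in experiment B of 6h_ATRi allows up to 1.62 CPM. The log2 changes were 0.43 ± 0.91 at 4 h (95% interval -1.42 to 2.29) and -0.27 ± 1.46 at 6 h (-3.26 to 2.72). The 6 h interval spans changes of 2 log2 units in either direction, and the 4 h interval spans a rise of that size but not a fall.

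With the inhibitor present, the drop after release was of similar size. DDIT4-AS1 in 4h_ATRi stood at 30.7, 14.0 and 17.9% of the arrested level in experiments A, B and C, with a log2 change of -2.27 ± 0.32 (95% interval -2.94 to -1.59). In 6h_ATRi it stood at 12.7 and 15.5% in A and B, with a log2 change of -3.05 ± 0.39 (-3.88 to -2.22). Between 6h_ATRi and 4h_ATRi the log2 change was -0.78 ± 0.36 (-1.55 to -0.01), but the ratio was 0.414 in experiment A and 1.11 in experiment B. The log2 change of DDIT4 was -1.77 ± 0.81 in 4h_ATRi (-3.44 to -0.10) and -3.82 ± 1.19 in 6h_ATRi (-6.27 to -1.37) against arrested cells. These comparisons share the arrested libraries with those of DMSO.

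Cycling cells lay between arrested and released cells for DDIT4-AS1. Arrested cells had 831, 726 and 1152 CPM, against 463, 216 and 361 CPM in cycling cells (mean 347 ± 124, SD, n = 3). The 2 conditions did not overlap, and arrested over cycling ratios were 1.79, 3.36 and 3.19 in experiments A, B and C. The log2 change was 1.38 ± 0.31 (95% interval 0.73 to 2.03). DDIT4 had 19, 8 and 21 counts in arrested cells, against 11, 3 and 1 counts in cycling cells, with a log2 change of 1.86 ± 0.82 (0.18 to 3.55). Its conditions overlapped, since the arrested library of experiment B at 3.98 CPM was below the cycling library of experiment A at 4.88 CPM.

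Released DMSO cells had less DDIT4-AS1 than cycling cells. The log2 change was -1.12 ± 0.31 at 4 h (95% interval -1.78 to -0.46) and -1.76 ± 0.32 at 6 h (-2.45 to -1.08). The highest 4h_DMSO library, at 185 CPM, was below the lowest cycling library, at 216 CPM. For DDIT4 the log2 changes were -0.34 ± 0.91 at 4 h (-2.21 to 1.53) and -1.68 ± 1.05 at 6 h (-3.83 to 0.46).

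In order of mean level, DDIT4-AS1 was highest in arrested cells, followed by cycling, 4h_ATRi, 4h_DMSO, 6h_ATRi and 6h_DMSO. Cycling and 4h_ATRi libraries overlapped, as did 4h_ATRi and 4h_DMSO, and 6h_ATRi and 6h_DMSO. The 4h_DMSO and 6h_ATRi libraries did not overlap, since the lowest of 4h_DMSO was 126 CPM and the highest of 6h_ATRi 113 CPM. For DDIT4 the order was arrested, 4h_ATRi, cycling, 4h_DMSO, 6h_DMSO and 6h_ATRi, and each neighbouring pair overlapped.

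Set against all 13510 features, edgeR's quasi-likelihood test (adjusted p under 0.05) called DDIT4-AS1 in 6 of 12 comparisons and DDIT4 in 1, counts from which nothing is read because the members were chosen from these contrasts. In 4h_DMSO over arrested cells 0.415% of features were called higher and 0.326% lower (100 features, or 644 with the experiment as a block), and DDIT4-AS1 was among those lower. In 6h_DMSO over arrested cells 1.27% were higher and 1.06% lower (314, or 1041 with the block), both members among those lower. In 4h_ATRi over arrested cells 1.96% were higher and 1.46% lower (462, or 1386 with the block), and in 6h_ATRi over arrested cells 1.58% and 0.859% (330, or 1014 with the block), DDIT4-AS1 among those lower in both. In arrested over cycling cells 0.6% were higher, DDIT4-AS1 among them, and 0.429% lower (139, or 762 with the block). In 6h_DMSO over cycling cells 0.489% were higher and 0.548% lower, DDIT4-AS1 among them (140, or 850 with the block).

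Neither member was called in the other comparisons in the fit to all libraries without the block. In 4h_ATRi over 4h_DMSO 0.289% of features were higher and 0.0222% lower (42, or 237 with the block). In 6h_ATRi over 6h_DMSO 0.0074% were higher and 0% lower (1, or 72 with the block). In 6h_DMSO over 4h_DMSO the shares were 0.0666% and 0.0148% (11, or 141 with the block), and in 6h_ATRi over 4h_ATRi 0.0222% and 0.0074% (4, or 167 with the block). In 4h_DMSO over cycling cells they were 0.466% and 0.452% (124, or 793 with the block). There DDIT4-AS1 was called lower with the block, without experiment B and in 1 of 6 fits with a library left out. DDIT4 was called lower with the block also in 4h_DMSO and 6h_ATRi over arrested cells. Without experiment B, DDIT4 was called lower in 4h_DMSO over arrested cells too, and DDIT4-AS1 was called lower in 6h_DMSO over 4h_DMSO.

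**Figure D4:**
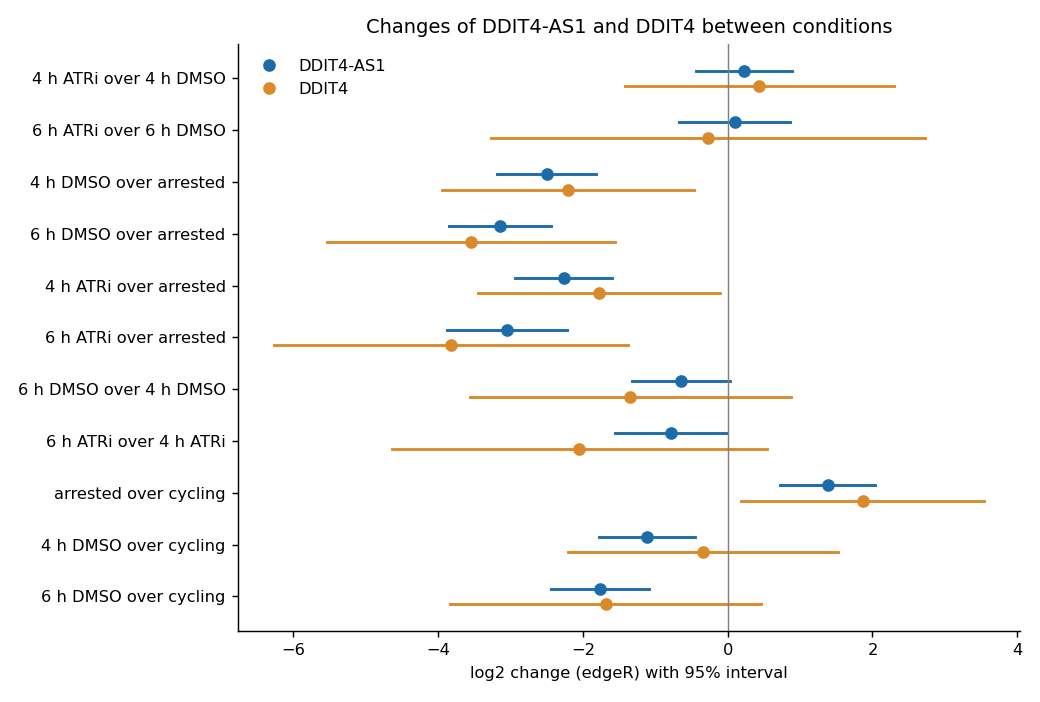
Fitted log2 changes (x axis) of DDIT4-AS1 and DDIT4 with 95% intervals, one row per comparison, the first-named condition over the second. The 4 released conditions lie at -3.14 to -2.27 for DDIT4-AS1 against arrested cells, and both inhibitor comparisons span 0.

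The authors' deposited table gave the same order for DDIT4-AS1, there with arrested cells on top of the ratio. Its log2 fold changes in the authors' deposited table were 2.14 for arrested cells over 4h_DMSO, 2.67 over 6h_DMSO and 1.21 over cycling cells. For DDIT4 the authors' deposited table gave 0.957, 1.23 and 0.858 for the same 3 comparisons, and it gave an adjusted p for DDIT4 in 0 of 16 comparisons.

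Beside the locus, ASCC1 and ANAPC16 on one side and DNAJB12 on the other passed the filter, and edgeR called none of the 3 in any of the 12 comparisons (smallest adjusted p 0.435, with 0 of 36 tests at an unadjusted p under 0.05). Their log2 changes in 6h_DMSO over arrested cells ran from -0.19 to 0.14. ASCC1, a subunit of the ASCC complex that works in DNA alkylation repair, had 94.1 ± 5.05 CPM in 6h_DMSO and 107 ± 13.9 CPM in arrested cells (SD, n = 3 each). SPOCK2 and MCU, the pore of the mitochondrial calcium uniporter, were too low to test.

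The features whose log2 CPM was most like that of DDIT4-AS1 over the 17 libraries were MIR548AA1 (Pearson r = 0.911), CEP250-AS1 (0.900, opposite to CEP250), GPSM2 (0.898, opposite to CLCC1), ENSG00000232941 (0.880), HSD17B6 (0.875, opposite to PRIM1), VCAN-AS1 (0.871, opposite to VCAN), SSPN, PHYHIPL, ENSG00000224713 and IQGAP2 (the last at 0.858). After each experiment's mean was subtracted, MIR548AA1, CEP250-AS1, GPSM2 and VCAN-AS1 were again among the first 10, with GFM1, SYTL4, KRT87P, ASIC5, LACTB2-AS1 and ZNF337 (r from 0.887 to 0.908 over all 10). These values describe 17 libraries that share 6 conditions and 3 experiments. DDIT4 had r = 0.803 with DDIT4-AS1 and ranked 50 among all features (r = 0.791 and rank 118 after the experiment means were subtracted). DDIT4-AS1 ranked 4 among the features most like DDIT4, and 17 after that subtraction. Since DDIT4 had at most 21 counts in a library, the others are not named.

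The limit on strand holds for the listed genes as well: counts on a gene that lies opposite to another feature cannot be told apart from reads of that partner, so a partner is named beside each such gene. For a gene without such a partner the strand of the counted reads is not known either, since the strand setting is not given. The genes known to work with DDIT4 in restraining mTORC1 were measured too. Of the 9 in that list 5 were tested. SESN2, which holds back mTORC1 when leucine is short, averaged 1.04 ± 1.01 CPM in 6h_DMSO and 8.31 ± 2.97 CPM in arrested cells (SD, n = 3 each). It fell in 6h_DMSO over arrested cells by 2.96 ± 0.80 on the log2 scale (adjusted p = 0.0446, edgeR). DESeq2 did not call it. SESN2 had 10 to 22 counts in arrested libraries and 0 to 4 in 6h_DMSO libraries. Of the other conditions only 4h_ATRi and 4h_DMSO reached 10 counts, with at most 11 and 12 in a library. It thus passed the filter on low counts mostly through arrested libraries, in which it is high, and its call is a description. In arrested over cycling cells SESN2 had a log2 change of 2.83 ± 0.78 (edgeR adjusted p = 0.0893, and 0.0024 with the block).

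TXNIP, a thioredoxin-binding protein that forms a complex with DDIT4, rose in arrested over cycling cells, with 12.0 ± 2.47 CPM in arrested cells and 3.47 ± 0.44 CPM in cycling cells. Its log2 change was 1.78 ± 0.42 (edgeR adjusted p = 0.0302). In 6h_DMSO over arrested cells TXNIP had -1.20 ± 0.40 (edgeR adjusted p = 0.135, and 0.0334 with the block). CUL4A and DDB1, parts of the ubiquitin ligase that removes DDIT4 protein, were not called without the block. CUL4A, opposite to PCID2, had -0.72 ± 0.23 in arrested over cycling cells (edgeR adjusted p = 0.191, and 0.0106 with the block). DDB1, opposite to TKFC, was called in none of the comparisons and had 70.4 ± 9.68 CPM in 6h_DMSO and 74.5 ± 8.45 CPM in arrested cells. USP8, a deubiquitinase opposite to USP50, had 18.1 ± 6.96 CPM in 6h_DMSO and 19.3 ± 4.14 CPM in arrested cells.

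DDIT4L, the paralog of DDIT4, had 0 to 3 counts per library and was not tested. SESN1, SESN3 and BTRC, the substrate receptor of the same ligase, were not tested either. SESN1 had at most 10 counts in a library, while ENSG00000271730 on its opposite strand had more. That feature, picked after its values were seen, had 52.2, 52.2 and 36.2 CPM in 6h_DMSO, against 109, 130 and 136 CPM in arrested cells (experiments A, B and C). The conditions did not overlap, and the log2 change was -1.41 ± 0.26 (edgeR adjusted p = 0.0024). In arrested over cycling cells it was 2.06 ± 0.26 (edgeR adjusted p = 7.26e-05), where cycling cells had 26.6, 25.9 and 37.2 CPM. Of 6 tested features opposite to genes of this list, it was the 1 called in each of these comparisons. The median log2 changes of the 6 were -0.26 and 0.16. Of all features 1.06% were called lower in 6h_DMSO over arrested cells and 0.6% higher in arrested over cycling cells. Since the feature was picked from these values, they support nothing about DDIT4-AS1. The source of its counts cannot be told apart from SESN1 either.

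Among the lists of the inputs to DDIT4, p53 targets gave the most calls in arrested over cycling cells. Of 17 tested p53 targets 6 were higher and 0 lower (10 higher with the block), against 0.6% of all features higher, and all 17 had a positive log2 change, with a median of 1.22 beside -0.01 over all features. CDKN1A, the cell cycle inhibitor p21, had 78.4 ± 48.8 CPM in arrested cells and 13.2 ± 4.33 CPM in cycling cells, a log2 change of 2.57 ± 0.54 (edgeR adjusted p = 0.0437). Counts on FAS, a death receptor gene opposite to ACTA2, were 171 ± 34.3 CPM in arrested cells and 66.4 ± 19.1 CPM in cycling cells (log2 change 1.37 ± 0.19, edgeR adjusted p = 1.10e-04). BBC3, the pro-apoptotic PUMA, opposite to MIR3190, had 11.9 ± 4.89 CPM in arrested cells and 1.08 ± 0.65 CPM in cycling cells (edgeR adjusted p = 0.0016). GADD45A, ZMAT3 and PHLDA3, a repressor of AKT, were the other calls, with log2 changes of 1.18 to 1.39. In 4h_DMSO over cycling cells 2 of the 17 were higher, FAS and BBC3, against 0.466% of all features. In 6h_DMSO over cycling cells 1 was higher, FAS, against 0.489%. FAS had 127 ± 18.8 CPM in 4h_DMSO and 125 ± 4.55 CPM in 6h_DMSO (edgeR adjusted p = 0.0108 and 0.0147 over cycling cells).

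In 6h_DMSO over arrested cells 2 of the 17 p53 targets were lower and 0 higher (7 lower with the block), against 1.06% of all features lower. None had a positive log2 change, and the median was -0.74 beside -0.01 over all features. The calls were BBC3 and SESN2, which stands in both lists and passed the filter mostly through arrested libraries. BBC3 had 1.85 ± 0.34 CPM in 6h_DMSO and 11.9 ± 4.89 CPM in arrested cells (log2 change -2.66 ± 0.54, edgeR adjusted p = 0.0046). DESeq2 called 0 of the 17 there, so both calls were lost with it. In 4h_DMSO over arrested cells 0 of 17 were called by edgeR or DESeq2 (2 lower with the block, and 2 at an unadjusted p under 0.05), with a median of -0.48. Of all features edgeR called 0.415% higher and 0.326% lower there without the block. With the inhibitor, XPC, a DNA damage sensor opposite to XPC-AS1, LSM3 and ENSG00000268279, fell in 4h_ATRi over arrested cells (13.0 ± 5.38 CPM in 4h_ATRi against 27.4 ± 4.86 CPM in arrested cells, edgeR adjusted p = 0.0366). It was the 1 of 17 called there, against 1.46% of all features lower.

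FOXO targets were called higher in arrested over cycling cells for 4 of 12 tested genes (3 by DESeq2), with 0 lower, against 0.6% of all features higher. The median log2 change was 0.63, beside -0.01 over all features, and 7 of 12 were positive. The calls were TXNIP and GADD45A, both in other lists as well, FBXO32, a ubiquitin ligase of muscle wasting, and CCNG2, an atypical cyclin. FBXO32 had 15.2 ± 2.04 CPM in arrested cells and 4.66 ± 1.85 CPM in cycling cells (log2 change 1.68 ± 0.41, edgeR adjusted p = 0.0354). CCNG2 had 3.98 ± 1.42 CPM in arrested cells and at most 0.498 CPM in a cycling library (edgeR adjusted p = 0.0344). In 6h_DMSO over arrested cells 0 of the 12 were called by edgeR or DESeq2 without the block (2 higher and 4 lower with it, and 7 at an unadjusted p under 0.05), with a median of -0.32. Of all features edgeR called 1.27% higher and 1.06% lower there without the block. CDKN1B, the cell cycle inhibitor p27, rose in 4h_ATRi over arrested cells (21.2 ± 4.49 CPM in 4h_ATRi against 9.22 ± 0.76 CPM in arrested cells, edgeR adjusted p = 0.0495). It was the 1 of 12 called there, against 1.96% of all features higher. In 6h_ATRi over arrested cells 1 of 12 was lower, GADD45A (log2 change -1.33 ± 0.35, edgeR adjusted p = 0.0331), against 0.859% of all features.

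Of 18 tested genes of the ATF4 response 1 was higher and 0 lower in each release comparison in DMSO, against 0.415% of all features higher at 4 h and 1.27% at 6 h. The median log2 change was 0.17 at 4 h, with 14 of 18 positive, and -0.10 at 6 h, with 7 of 18 positive, beside 0.0025 and -0.01 over all features. SLC7A5, the leucine transporter that feeds mTORC1 and lies opposite to ENSG00000260466, was the call in both (2 higher with the block at 4 h). It had 160 ± 36.8 CPM in 4h_DMSO and 74.5 ± 13.1 CPM in arrested cells (log2 change 1.10 ± 0.22, edgeR adjusted p = 0.0135), and 149 ± 37.3 CPM in 6h_DMSO (1.00 ± 0.22, adjusted p = 0.0115). SLC3A2, its heavy chain, had 36.0 ± 7.19 CPM in 4h_DMSO and 11.0 ± 2.03 CPM in cycling cells (log2 change 1.70 ± 0.31, edgeR adjusted p = 0.0045). NUPR1, a stress-induced nuclear protein, was the call in arrested over cycling cells, with 55.3 ± 12.9 CPM in arrested cells and 22.8 ± 5.99 CPM in cycling cells (1.27 ± 0.25, edgeR adjusted p = 0.0067). There 1 of 18 was called without the block and 3 with it, against 0.6% of all features higher without it, and the median log2 change was 0.37 beside -0.01 over all features. In 4h_DMSO and in 6h_DMSO over cycling cells 3 of 18 were higher, against 0.466 and 0.489% of all features. NUPR1 was among them, with 62.1 ± 6.80 and 50.9 ± 15.3 CPM (edgeR adjusted p = 0.0030 and 0.0188). SLC7A5 was also called higher in 4h_ATRi and 6h_ATRi over arrested cells (edgeR adjusted p = 0.0012 and 0.0371), 1 of 18 in each, against 1.96 and 1.58% of all features.

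HIF1 targets gave 0 calls by edgeR or DESeq2 among 20 tested in either release comparison in DMSO (0 at 4 h and 2 at 6 h at an unadjusted p under 0.05) and 1 lower in arrested over cycling cells, against 0.429% of all features lower (4 lower with the block, which called 762 features against 139 without it). The median log2 change there was -0.37, with 5 of 20 positive. The call was PGK1, a glycolytic enzyme, with 13.8 ± 1.76 CPM in arrested cells and 31.1 ± 5.53 CPM in cycling cells (log2 change -1.16 ± 0.26, edgeR adjusted p = 0.0247). PDK1, the kinase that limits pyruvate entry to mitochondria, fell in 6h_DMSO over cycling cells (6.75 ± 2.45 CPM in 6h_DMSO against 18.1 ± 3.41 CPM in cycling cells, edgeR adjusted p = 0.0365). It lies opposite to PDK1-AS1 and was the 1 of 20 called there, against 0.548% of all features lower. Of 10 tested glucocorticoid targets 0 were called by edgeR or DESeq2 in the release and arrest comparisons without the block. At an unadjusted p under 0.05 there were 2, 2 and 0 in 4h_DMSO and 6h_DMSO over arrested and arrested over cycling cells. With the block 1 was higher in 6h_DMSO over arrested cells. In the same order of comparisons edgeR called 0.415, 1.27 and 0.6% of all features higher and 0.326, 1.06 and 0.429% lower without the block.

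On the side of mTORC1, the TSC and RHEB branch, through which DDIT4 acts, had 15 tested genes, with a median log2 change of 0.12 in 6h_DMSO over arrested cells, beside -0.01 over all features. TSC2, opposite to NTHL1 and PKD1, fell in 4h_DMSO over cycling cells (33.2 ± 3.97 CPM in 4h_DMSO against 57.4 ± 5.44 CPM in cycling cells, edgeR adjusted p = 0.0499). It was the 1 of 15 called there, against 0.452% of all features lower.

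Of 15 tested core subunits and substrates of mTORC1, 1 was lower in arrested over cycling cells, against 0.429% of all features, and the median log2 change was -0.16. The call was EIF4G1, the scaffold of the cap-binding complex, with 98.4 ± 7.26 CPM in arrested cells and 159 ± 34.5 CPM in cycling cells (log2 change -0.70 ± 0.17, edgeR adjusted p = 0.0444). With the block, 1 of the 15 was higher in each of 4h_DMSO and 6h_DMSO over arrested cells. Of 17 tested genes of the amino acid branch 0 were called by edgeR or DESeq2 in 4h_DMSO over arrested, 6h_DMSO over arrested and arrested over cycling cells without the block (0, 1 and 2 at an unadjusted p under 0.05). In the same order edgeR called 0.415, 1.27 and 0.6% of all features higher and 0.326, 1.06 and 0.429% lower without the block. With it 1 was higher in 4h_DMSO and 2 in 6h_DMSO over arrested cells, and 1 was lower in arrested over cycling cells.

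In 4h_ATRi over 4h_DMSO and in 6h_ATRi over 6h_DMSO, edgeR and DESeq2 each called 0 of 126 tested genes of the 9 lists without the block (2 at 4 h and 4 at 6 h at an unadjusted p under 0.05). Of all features edgeR called 0.289% higher and 0.0222% lower at 4 h, and 0.0074% higher and 0% lower at 6 h. With so few calls over all features, nothing about the lists is read from the 0. With the block 1 HIF1 target was higher at 4 h and 0 genes were called at 6 h. Without experiment B 1 FOXO target was higher at 4 h. List medians of the log2 change lay between -0.18 (p53 targets) and 0.21 (FOXO targets) at 4 h, beside -0.01 over all features.

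**Figure D5:**
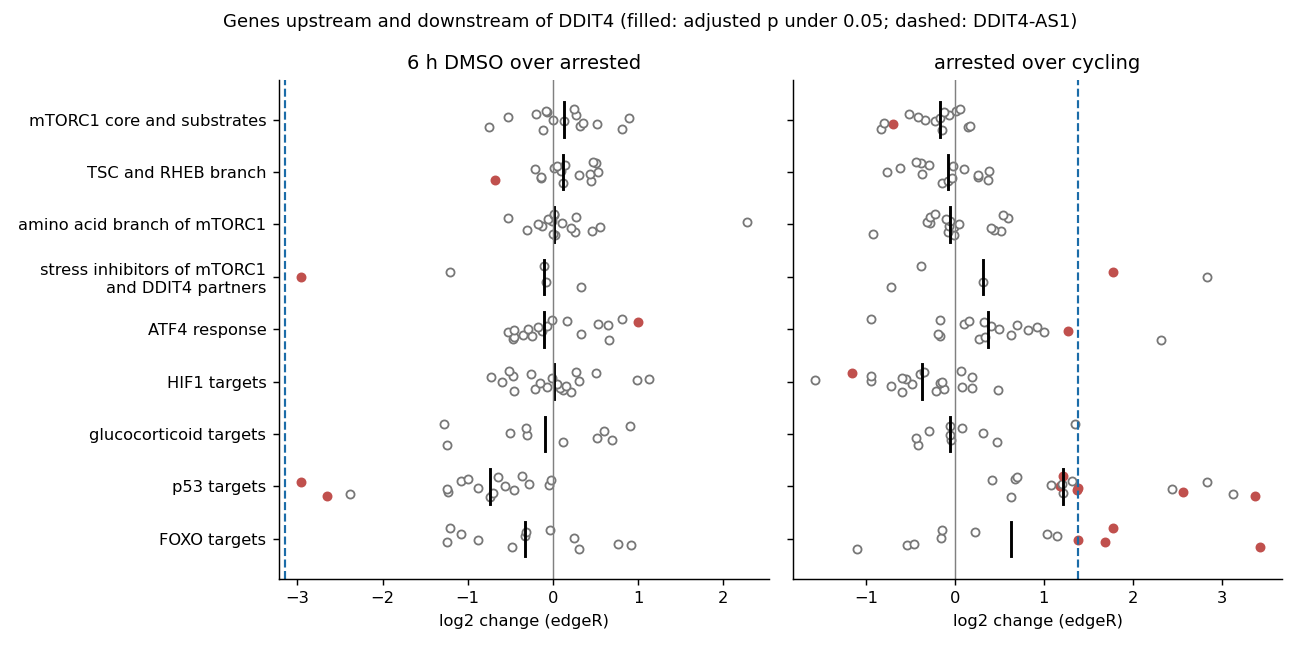
Log2 change (x axis) of each tested gene of the 9 lists in 6h_DMSO over arrested cells (left) and in arrested over cycling cells (right); bars are list medians and filled points have an adjusted p under 0.05. The dashed line is DDIT4-AS1, at -3.14 on the left and 1.38 on the right, and some genes stand in more than 1 list.

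Library totals ran from 1758747 to 2357561 counts, so 10 counts lie near 5 CPM and DDIT4 rests on single reads in most libraries. Of the markers of the pigment epithelium, RPE65, RLBP1 and TTR had a median of 0, MITF 4.48 CPM and OTX2 1.98 CPM. The high values of BEST1 and PMEL lie opposite to FTH1 and CDK2. In the list of epithelium and fibroblasts, KRT8 and KRT18, keratins of simple epithelia that overlap each other, had medians of 3979 and 288 CPM. CDH1, EPCAM and DCN had a median of 0, and COL1A2 and LUM were at 0 in every library. VIM, opposite to VIM-AS1 and ENSG00000234961, had a median of 1111 CPM. The medians of COL1A1, PDGFRB and KRT7 (opposite to KRT7-AS and KRT87P) were 26.9, 7.53 and 10.5 CPM. Of 5 blood markers 2 were at 0 in every library, and the list summed to 1.45 to 12.4 CPM; the list of neurons and photoreceptors summed to 25.7 to 44.7 CPM. In it RCVRN was at 0 in every library, while CRX, a photoreceptor transcription factor, had 5.60 to 19.8 CPM. SYT1, opposite to ENSG00000257191, had a median of 12.1 CPM, and TUBB3 one of 6.03 CPM.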

How the data were processed

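Per the labels' protocols, the 17 RPE-1 libraries came from Trizol RNA and the KAPA Stranded mRNA-Seq kit. The authors' deposited count table holds whole-number read counts per gene ID, not normalised. The authors' deposited table also holds log2 fold changes and adjusted p-values. The submitters' processing notes name TopHat, GRCh37, HTSeq and DESeq2. Their versions, the annotation and the strand setting were not given in the sources used here. Nothing says how the experiments' cultures relate beyond their letters, so spread between libraries is spread between these experiments.

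The members and lists were chosen with earlier results of these data known. Lists for mTORC1, its TSC, amino acid and stress branches, and ATF4, HIF1, glucocorticoid, p53 and FOXO targets were written by hand, with markers of pigment epithelium, epithelium and fibroblasts, blood, and neurons. Named were the members, DDIT4L, the stress list, called list genes (at most 6 per list), the 10 features most like a member and the nearest 3 coding genes on each side; some of these are not reported here.

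Features were filtered with filterByExpr (minimum count 10, minimum total 15), leaving 13510. edgeR 4.0.16 in R 4.3.3 (TMM, glmQLFit, glmQLFTest) was fitted once to all libraries, with Benjamini-Hochberg adjustment over all features, 11 residual degrees of freedom and 0.05 as threshold. The script was tested on simulated data. Likeness used log2 CPM with a prior count of 2. Of the IDs, 55487 were named by the name table and 423, DDIT4-AS1 among them, by GENCODE v29 only. That GRCh38 annotation served for names, lengths and overlap, since no GRCh37 annotation was used. The RefSeq transcript called DDIT4-AS1 lies elsewhere beside DDIT4 and was not used. Intervals and the limit of 3 counts for a 0 cover counting error only, and reads carried no molecular identifiers. Libraries with the same letter deviated together (correlations of 0.081 to 0.534 over 30 pairs, across genes, which are not independent), and the letters were taken as the shared experiments of the design text. Alternatives were DESeq2 1.42.0, no scaling factors, no filter, the compared conditions only, the experiment as a block, and leaving out experiment B or each library.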

Additional observations from a re-analysis of the deposited data

How the results depend on the processing

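All alternatives kept the log2 changes of DDIT4-AS1 and of the locus sum within 1 pooled SD between libraries (0.428 and 0.429 log2 units), 146 values each. Of 125 values of DDIT4, 13 moved by more than its SD of 0.774. Without experiment B, DDIT4 had 1.21 in 4h_ATRi over 4h_DMSO and 1.05 in 6h_ATRi over 6h_DMSO. With each library left out in turn its log2 change ran from -3.60 to 0.68 in 6h_ATRi over 6h_DMSO, -7.13 to -2.85 in 6h_ATRi over arrested, -5.37 to -1.10 in 6h_ATRi over 4h_ATRi, 1.42 to 3.08 in arrested over cycling, -0.78 to 0.88 in 4h_DMSO over cycling, -2.12 to -0.46 in 6h_DMSO over cycling and -4.04 to 0.23 for the difference of the inhibitor responses. A 6h_ATRi library left out leaves 1, assumed to vary like the others. Without arrested replicate A or C, DDIT4 failed the filter and gave no value.

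With each library left out in turn, DDIT4-AS1 lost its call in 5 of 6 fits in arrested over cycling (all but that without cycling replicate A) and in 5 of 6 in 6h_DMSO over cycling (all but that without cycling replicate B), with log2 changes of 1.15 to 1.67 and -1.97 to -1.46. The call of DDIT4 in 6h_DMSO over arrested was kept in 1 of 4 (without arrested replicate B) and lost without scaling factors, and DESeq2 gave it no adjusted p. Without experiment B, DDIT4-AS1 had a log2 change of -0.76 in 6h_DMSO over 4h_DMSO and was called lower by edgeR. That fit called 82 features in this comparison, against 11 in the fit to all libraries. In 6h_ATRi over 4h_ATRi the log2 change of DDIT4-AS1 without experiment B was -1.13, with 1 library left in 6h_ATRi. The cause was not tested. The ratio of DDIT4-AS1 to DDIT4 counts ran from 103 to 119 with a library left out, was 101 without experiment B and 127 as the mean over conditions.

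The replicate block (the experiment) gave DDIT4-AS1 log2 changes of 0.20 ± 0.26 in 4h_ATRi over 4h_DMSO, 0.19 ± 0.33 in 6h_ATRi over 6h_DMSO, -3.13 ± 0.27 in 6h_DMSO over arrested and 1.42 ± 0.24 in arrested over cycling. Counts of called features with the block, against those without, were 237 and 42, 72 and 1, 644 and 100, 1041 and 314, 141 and 11, 1386 and 462, 1014 and 330, 167 and 4, 762 and 139, 793 and 124, and 850 and 140, for 4h_ATRi over 4h_DMSO, 6h_ATRi over 6h_DMSO, 4h_DMSO and 6h_DMSO over arrested, 6h_DMSO over 4h_DMSO, 4h_ATRi and 6h_ATRi over arrested, 6h_ATRi over 4h_ATRi, arrested over cycling, and 4h_DMSO and 6h_DMSO over cycling. DESeq2 called 17, 181, 34, 24 and 227 in 6h_ATRi over 6h_DMSO, 4h_DMSO over arrested, 6h_DMSO over 4h_DMSO, 6h_ATRi over 4h_ATRi and 4h_DMSO over cycling. Without experiment B there were 85 in 4h_ATRi over 4h_DMSO, 418 in 4h_DMSO over arrested, 771 in 6h_DMSO over arrested and 264 in arrested over cycling. Leaving out a library gave 13 to 41, 26 to 85, 143 to 299 and 50 to 86 in the same 4 comparisons. In arrested over cycling p53 targets fell to 2 calls without cycling replicate A or B and 3 without arrested replicate B, and FOXO targets to 0 without cycling replicate A or B or arrested replicate C. Each list with 1 call had 0 without at least 1 library.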
